A study of Cricetulus griseus with 16 samples.

Results

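Gene expression after 1 h at 42.5 °C was compared directly with gene expression after 1 h at 40 °C in CHO cells. The 2 treatments were equally long and differed in temperature. The comparison took all 4 libraries of each treatment, 8 of the 16 libraries of the series, and every gene that passed edgeR's default filter on low counts, which was 10441 of 20824 listed genes. CHO (ATCC CCL-61) is a line from Chinese hamster ovary, and all the cells were grown in Ham's F-12K with serum at 37 °C, plated 24 h before heating, and represent 1 cell line. The study calls 40 °C a fever-like, mild exposure and 42.5 °C a moderate one, and the comparison asks what separates their early transcriptomes. The other groups were unheated cells at 37 °C, whose replicates A, B and C are given below as the reference level, and cells held at 40 °C for 6 h. The 6 h libraries were not compared and entered only the scaling of expression levels and an alternative fit over all groups. No allele or drug distinguishes the groups. The study's methods describe the libraries of a group as biological repeats.

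Heat unfolds proteins in the cytosol and nucleus, and unfolded proteins draw chaperones away from heat shock factor 1, the transcription factor that these chaperones hold inactive. The freed factor binds heat shock elements and raises the transcription of inducible chaperones, above all of the HSP70, HSP40 and small heat shock protein families. Stronger heat also acts on growth factor receptors, stress-activated kinases, translation and splicing, so immediate early genes, which are transcribed within minutes and encode unstable mRNAs, respond within the same hour.

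The 40 °C libraries held 12102528 to 14668365 counts and the 42.5 °C libraries 10504192 to 13202441. The floor of 3 counts lay between 0.205 and 0.286 CPM (counts scaled to a common library size with TMM factors, the unit of all levels below), a limit that covers counting error only. Of the 8 mesenchymal markers listed, Vim was between 2140 and 2370 CPM and Fn1, LGALS1, Col3a1 and S100a4 were well above the floor in all 8 libraries, whereas Col1a1 and Col1a2 had at most 2 counts and Cdh2 at most 8. Summed markers of leukocytes, of which 2 of 4 listed were found, reached at most 0.0964 CPM and those of endothelium 0.327 CPM, and Kdr was at 0. Of the epithelial markers, of which 3 of 5 were found, Epcam and Krt19 had at most 1 count, and Cdh1 was at 1.71 to 1.88 CPM at 40 °C and 2.14 to 3.37 CPM at 42.5 °C. At 37 °C, the 100 most abundant genes took 22.2% of the counts in replicate D and 18.2% to 19.1% in the other 3 libraries. The study left out a control library that its text does not name. Replicate D was left out of the reference levels here on the inference that it is that library.

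A gene was called when its Benjamini-Hochberg adjusted p in edgeR's quasi-likelihood test was under 0.05 and its fold change was at least 1.5. Of 10441 genes tested, 550 were called (5.27%), with 183 higher at 42.5 °C (1.75%) and 367 lower (3.51%). These shares are the background for the counts of called list members below. By adjusted p alone, 1717 genes were higher and 2050 lower. The genes that fell were more numerous and those that rose went further. Among the called genes, 78 rose and 89 fell by at least 2-fold, but 25 rose and 2 fell by at least 4-fold. The filter on low counts admits a gene that is high in either group alone. The largest folds thus include genes near the floor in the other group, such as Lrit3 and Ccn5, and how far they shape this contrast was not tested. The libraries of the 2 temperatures did not overlap for 160 of the 183 genes called higher and 345 of the 367 called lower. Over all genes tested, 13.6% had every 42.5 °C library above every 40 °C library and 19.7% had every one below. Differences are log2 fold changes, 42.5 °C over 40 °C unless stated. Their median over all genes was 0.00, which TMM scaling sets near 0 by construction. Called genes were of low abundance, with a median of 10.3 CPM for those higher and 12.5 CPM for those lower, against 39 CPM for all genes tested. For the scale of each heat step, 35 of 10494 genes (0.334%) were called between 40 °C and 37 °C and 786 of 10470 (7.51%) between 42.5 °C and 37 °C. With all 4 control libraries the first of these counts fell to 3. Both comparisons were fitted without pairing libraries by replicate letter, and with that pairing 48 and 717 genes were called. All 3 comparisons share libraries, so their values are set side by side only.

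**Figure D1:**
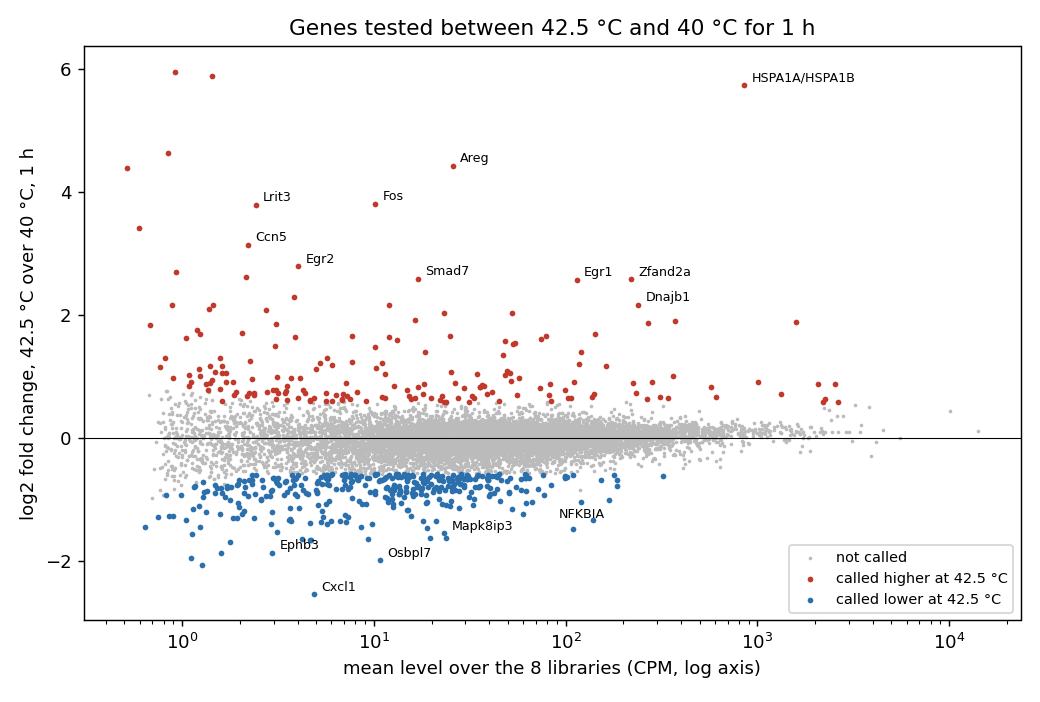
Each point is 1 of the 10441 genes tested. The horizontal axis gives its mean level over the 8 libraries in CPM on a log axis and the vertical axis its log2 difference between 42.5 °C and 40 °C. Red points are the 183 genes called higher at 42.5 °C and blue points the 367 called lower, and the labelled rises, led by HSPA1A/HSPA1B, reach further from 0 than the labelled falls, led by Cxcl1 with -2.54.

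The inducible HSP70 transcript was the largest rise among named genes at 3 CPM or more. HSPA1A/HSPA1B (ENSCGRG00001001109) is named from the study's list of leading genes, which was paired with identifiers by fold change. The gene of that name encodes the stress-inducible cytosolic HSP70, and reads of its near-identical copies may not be separable. It was at 57.9, 15.01, 37.1 and 16.3 CPM in 40 °C replicates A to D and at 1605, 1848, 1530 and 1741 CPM in 42.5 °C replicates A to D. The lowest 42.5 °C library thus lay far above the highest 40 °C library, and the 3 control libraries were at 2.59 to 4.03 CPM. The log2 difference was 5.73 (SE 0.28, adjusted p = 1.02e-09), a 53.1-fold difference. Against 37 °C the same transcript was 3.14 higher at 40 °C (SE 0.47, adjusted p = 0.00324) and 8.88 higher at 42.5 °C (SE 0.11, adjusted p = 3.71e-18) on the log2 scale.

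Of the other cytosolic HSP70 and HSP110 genes, Hsph1 was called. Hsph1, an HSP110 that exchanges nucleotide on HSP70, was at 880, 451, 863 and 550 CPM at 40 °C and 1817, 2735, 1718 and 3735 CPM at 42.5 °C, with a control mean of 325 CPM. Both groups were above the control and did not overlap, and the log2 difference between them was 1.88 (SE 0.23, adjusted p = 1.41e-05). The constitutive HSPA8, which folds new proteins in unstressed cells, was at 214 to 296 CPM at 40 °C and 288 to 481 CPM at 42.5 °C. These ranges overlap, and its log2 difference of 0.51 (adjusted p = 0.00415) is under the threshold of 1.5-fold. In this list of 7 tested genes, 2 were called higher (28.6%, where 1.75% of all genes tested were) and none lower. The median log2 difference of the list was 0.33.

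Among DNAJ proteins, the co-chaperones that hand clients to HSP70, Dnajb1 had the largest difference. Dnajb1 (ENSCGRG00001013728), the main heat-inducible HSP40, was at 126, 53.05, 113 and 59.8 CPM at 40 °C and 339, 459, 241 and 522 CPM at 42.5 °C, against 26.4 to 30.2 CPM at 37 °C. The log2 difference was 2.16 (SE 0.25, adjusted p = 7.72e-06) with no overlap between libraries. Of 34 DNAJ genes tested, 2 were called higher, Dnajb1 and Dnajb4, and Dnajc27 was called lower with -0.70 (SE 0.11). These calls made up 8.82% of the list, where 5.27% of all genes tested were called. The median over the 34 was 0.00. Dnajb4, another HSP40, had a log2 difference of 0.68 (SE 0.13), which was 0.57 and under the threshold without 42.5 °C replicate D.

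The list of BAG and ZFAND families had 2 of 13 genes called, both higher (15.4%, where 1.75% of all genes tested were called higher). Zfand2a (ENSCGRG00001018973), also known as AIRAP, a proteasome-binding stress protein, was at 94.5, 33.8, 85.3 and 40.3 CPM at 40 °C and 278, 405, 260 and 560 CPM at 42.5 °C. All 4 heated libraries at 40 °C exceeded the 18.5 to 19.9 CPM of the control, and all 4 at 42.5 °C exceeded those, with a log2 difference of 2.58 (SE 0.28, adjusted p = 4.85e-06). Bag3, which directs HSP70 and small heat shock protein clients to autophagy, rose by 1.89 (SE 0.19, adjusted p = 3.05e-06), from 112 to 209 CPM at 40 °C to 446 to 809 CPM at 42.5 °C.

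Small heat shock proteins, which hold unfolded clients without ATP, had 2 of 4 tested genes called, both higher, with a median of 0.64. Of all genes tested, 1.75% were called higher. Hspb1, which encodes Hsp25, was at 129, 88.2, 150 and 100.2 CPM at 40 °C and 353, 518, 263 and 551 CPM at 42.5 °C, a log2 difference of 1.86 (SE 0.19, adjusted p = 3.42e-06). Hspb8, the BAG3 partner, went from 212 to 274 CPM to 393 to 637 CPM, a log2 difference of 1.00 (SE 0.12, adjusted p = 1.24e-05). Neither gene had overlapping libraries. Hspb6 and Hspb11 had log2 differences of 0.29 (adjusted p = 0.129) and 0.19 (adjusted p = 0.132).

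Of 20 listed genes of the HSP90 machinery, which matures kinases and steroid receptors, 15 were found by name, and none of these was called. All 15 were tested, and 4 of them were higher and 2 lower by adjusted p alone. Hsp90ab1, the constitutive cytosolic HSP90, was at 3919 to 4654 CPM at 40 °C and 4288 to 5253 CPM at 42.5 °C, with a log2 difference of 0.13 (SE 0.06, adjusted p = 0.118). The largest value in the list was that of Cacybp, 0.41. Of the 8 listed subunits of the TRiC/CCT chaperonin, which folds actin and tubulin, 6 were found by name. None of these 6 was called, and their median was 0.15. The heat shock factor list had no call either among 3 tested genes, with Hsf1 at -0.18 (SE 0.04) and Hsf2 at 0.27 (SE 0.06).

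Chaperones of organelles had 1 call each in the mitochondrial and endoplasmic reticulum lists. These calls made up 9.09% and 5.26% of the 2 lists, where 5.27% of all genes tested were called. Serpinh1, the collagen chaperone HSP47 of the endoplasmic reticulum, was at 803, 620, 751 and 637 CPM at 40 °C and 1079, 1405, 978 and 1760 CPM at 42.5 °C, a log2 difference of 0.91 (SE 0.14, adjusted p = 0.000106). It was the called gene among 19 tested in its list, whose median was 0.07, and Hspa5 (BiP) had a log2 difference of 0.10 (SE 0.06, adjusted p = 0.195). HSPD1, the mitochondrial HSP60, had 0.59 (SE 0.09) and lay close to the threshold, since it was 0.54 without 40 °C replicate B, 0.56 without 42.5 °C replicate B and 0.49 without 42.5 °C replicate D. It was the called gene among 11 mitochondrial chaperones and proteases, whose median was 0.07.

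**Figure D2:**
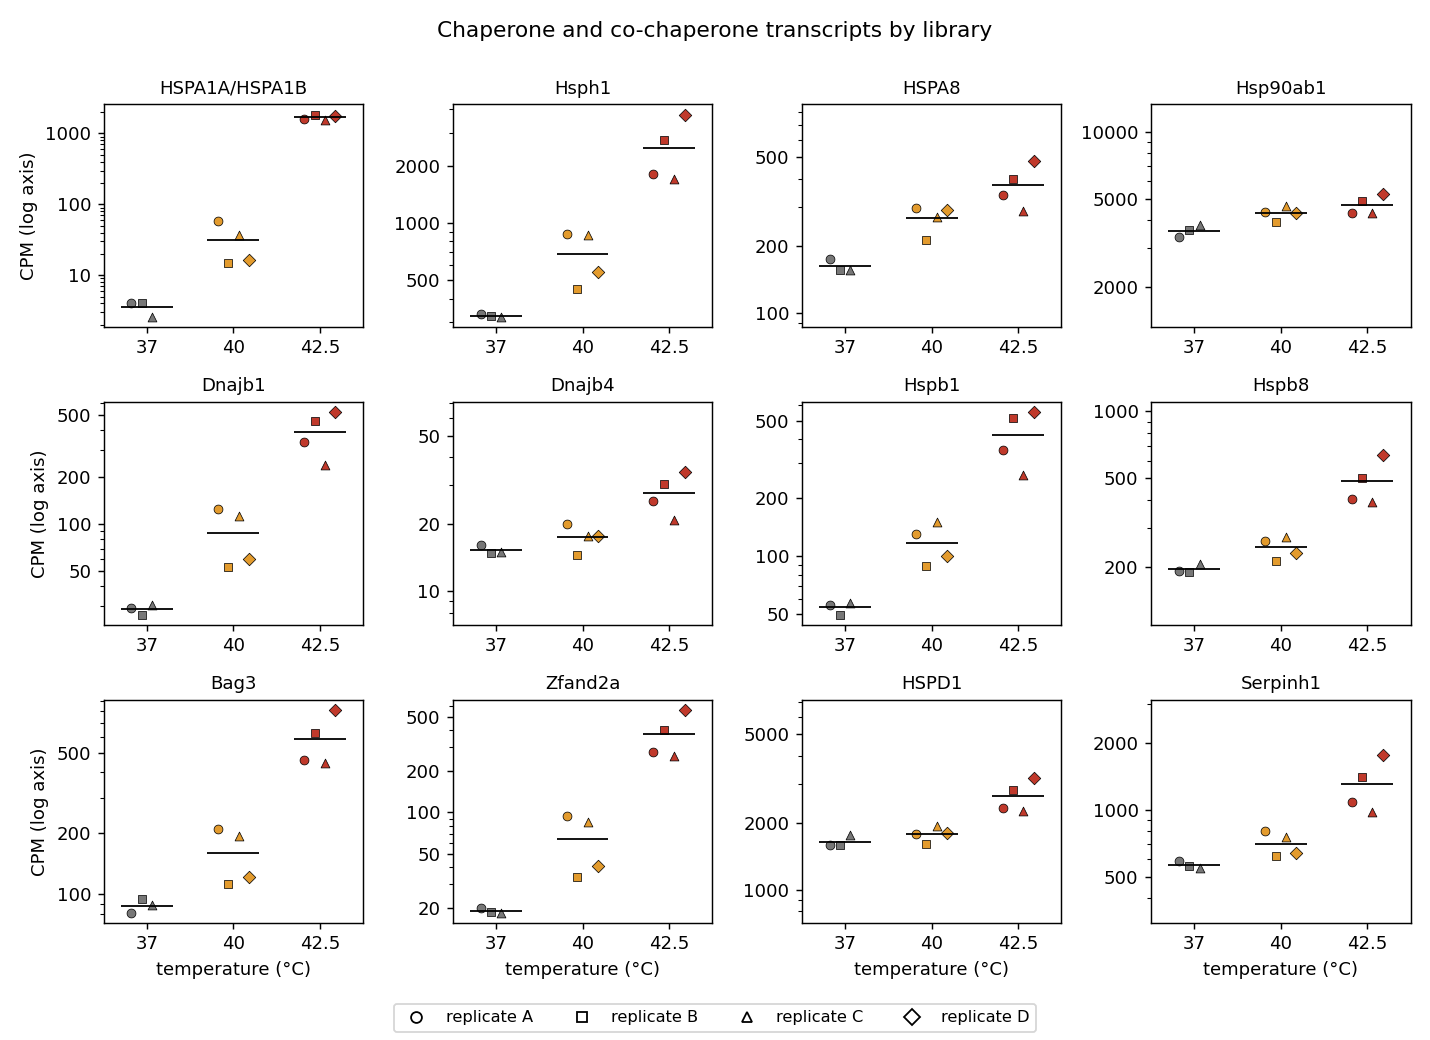
Each panel gives the level of a chaperone or co-chaperone transcript in CPM (log axis) per library (3 at 37 °C and 4 at each heating temperature), with a symbol per replicate and a line at the group mean. HSPA1A/HSPA1B spans more than any other panel, from 2.59 to 1848 CPM, whereas Hsp90ab1 stays between 3347 and 5253 CPM.

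The heated libraries varied together in these genes. The 9 called genes of the cytosolic and mitochondrial chaperone lists summed to 2314 to 2494 CPM at 37 °C, to 2580 to 3665 CPM at 40 °C and to 7122 to 11770 CPM at 42.5 °C. At 40 °C, all 9 were above their group mean in replicates A and C, 0 in B and 2 in D. At 42.5 °C, all 9 were above it in replicates B and D and 0 in A and C. Replicate D also held the highest 42.5 °C level for 112 of the 183 genes called higher (61.2%), compared with 29.8% of all genes tested. Without that library, 156 genes were called higher, of which 145 were among the 183. What sets these libraries apart was not tested.

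Immediate early genes moved in both directions between the temperatures. In the AP-1 list, whose FOS and JUN proteins form dimeric transcription factors, 4 of 13 tested genes were called higher and none lower. The called share was 30.8%, where 5.27% of all genes tested were called. Fos (ENSCGRG00001006758) was at 1.23, 1.00, 1.88 and 1.399 CPM at 40 °C and 18.3, 21.2, 15.6 and 20.7 CPM at 42.5 °C. No library overlapped, the controls were at 0.432 to 0.806 CPM, and the log2 difference was 3.80 (SE 0.16, adjusted p = 2.95e-10). Junb rose by 1.4 (SE 0.05, adjusted p = 8.08e-11), Fosl2 by 0.81 and Atf3, a stress-induced repressor of the same family, by 1.65 (SE 0.22).

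Jun, the partner of Fos, was not called. It was at 67.1 to 75.8 CPM in the controls, at 189, 106, 177 and 112 CPM at 40 °C and at 157, 174, 136 and 164 CPM at 42.5 °C. The heated groups overlapped, with a log2 difference of 0.12 (SE 0.14, adjusted p = 0.533), while both lay above the control, by 1.04 (adjusted p = 0.00414) and 1.16 (adjusted p = 1.29e-08). Fosl1 and Jund, at -0.18 and -0.15, were under the threshold.

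The other immediate early genes had 7 of 22 called higher and 3 called lower, with a median of 0.05. Calls made up 45.5% of this list, where 5.27% of all genes tested were called. Egr1 (ENSCGRG00001016318), a zinc finger factor induced by mitogens, was at 34.4, 34.2, 36.6 and 27.8 CPM at 40 °C, below all 3 controls at 41.5 to 51.6 CPM, and at 241, 189, 187 and 163 CPM at 42.5 °C. Its log2 difference between the heated groups was 2.56 (SE 0.10, adjusted p = 1.52e-10), and between 40 °C and 37 °C it was -0.53 (adjusted p = 0.00752). Egr2 rose by 2.78 (SE 0.20, adjusted p = 1.01e-07) from 8 to 18 counts per library at 40 °C to 60 to 96 counts. Csrnp1 (2.03), Nr4a1 (1.18) and Klf6 (0.82) rose as well. Klf6 had means of 36.9 CPM at 37 °C, 26.1 CPM at 40 °C and 45.5 CPM at 42.5 °C. It was thus below the control at 40 °C, and its log2 difference between 42.5 °C and 37 °C was 0.33, under the threshold. The calls of Nr4a3 (0.73) and Egr3 (0.67) fell under the threshold without 42.5 °C replicate D, at 0.51 and 0.54, and without a 40 °C library each, at 0.63 with adjusted p = 0.0565 for Nr4a3 without replicate B and at 0.56 for Egr3 without replicate D.

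Ier2, Gadd45b and Ier5l went the other way. Ier2, a short-lived nuclear protein, was at 7.12, 7.16, 8.42 and 7.31 CPM at 40 °C and 3.04, 3.12, 3.18 and 3.60 CPM at 42.5 °C, a log2 difference of -1.19 (SE 0.13, adjusted p = 4.78e-06). Gadd45b, a regulator of stress kinase signalling, had -1.04 (SE 0.12) and Ier5l -0.66 (SE 0.10), with no overlap of libraries for any of the 3. Ier5l was at 10.6 to 12.2 CPM at 40 °C, 6.65 to 8.08 CPM at 42.5 °C and 5.37 to 5.79 CPM at 37 °C, so its highest level was at 40 °C. Myc, at -0.42 (SE 0.08, adjusted p = 0.00102), was under the threshold of 1.5-fold.

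Both called ligands of the EGF receptor rose, and Areg ranked second among the 15 largest rises. Areg (ENSCGRG00001000398), which encodes the ligand amphiregulin, was at 2.46, 1.54, 3.19 and 2.18 CPM at 40 °C and 30.5, 56.0, 29.5 and 81.0 CPM at 42.5 °C, with a log2 difference of 4.42 (SE 0.35, adjusted p = 2.87e-07). The 40 °C libraries lay close to the 1.32 to 2.40 CPM of the controls. Hbegf, a heparin-binding ligand of the same receptor, rose by 1.35 (SE 0.13, adjusted p = 1.25e-06), and Ccn5, a secreted matricellular protein, by 3.13 (SE 0.32) from 3 to 8 counts per library to 32 to 73 counts. These were the 3 called genes among 11 growth factors tested (27.3%, where 5.27% of all genes tested were called).

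Dusp1, a nuclear phosphatase that inactivates MAP kinases, was at 77.7, 52.2, 82.1 and 60.0 CPM at 40 °C and 167, 241, 182 and 276 CPM at 42.5 °C, a log2 difference of 1.68 (SE 0.15, adjusted p = 7.45e-07). Of 18 phosphatases and ERK feedback genes, 3 were called, all higher (16.7%, where 1.75% of all genes tested were called higher). The other 2, Dusp16 (0.71) and Phlda1 (0.59), were under the threshold without 42.5 °C replicate D, at 0.58 and 0.50, and Phlda1 also without 40 °C replicate D (0.48) and 42.5 °C replicate B (0.53).

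The TGF-beta feedback list had 3 genes higher and 1 lower of 12 tested (33.3% called, where 5.27% of all genes tested were). Smad7 (ENSCGRG00001017713), which blocks the TGF-beta receptor, was at 5.54, 5.08, 5.32 and 3.50 CPM at 40 °C and 27.6, 33.5, 28.5 and 26.8 CPM at 42.5 °C. Its log2 difference was 2.59 (SE 0.12, adjusted p = 5.8e-10), while at 40 °C it stood 0.08 above the control (adjusted p = 0.901). Skil, a SMAD co-repressor, rose by 1.52 (SE 0.14) and Id1, a BMP target, by 1.03 (SE 0.13), and Tgif1, another SMAD co-repressor, fell by 0.86 on the log2 scale (SE 0.09).

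**Figure D3:**
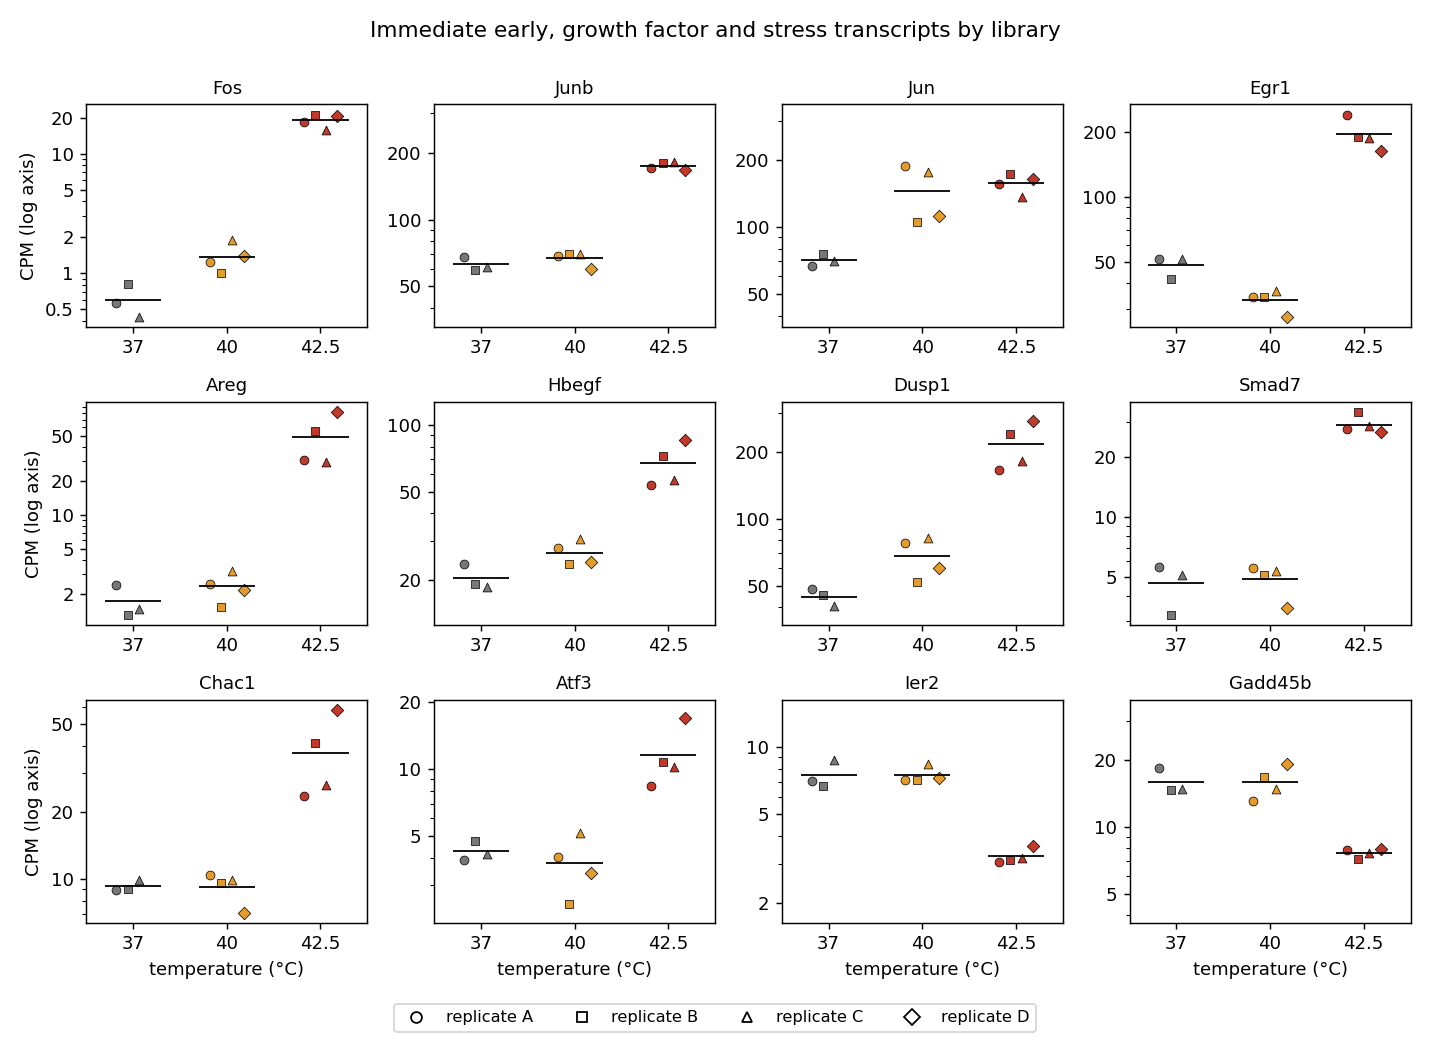
Levels of immediate early, growth factor and stress transcripts are shown in CPM (log axis) per library at 37 °C (n = 3), 40 °C (n = 4) and 42.5 °C (n = 4), with a symbol per replicate and a line at the group mean. The 42.5 °C libraries lie above all others for Fos, Areg and Smad7 and below all others for Ier2 and Gadd45b, and for Jun they overlap with the 40 °C libraries.

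Among sensors and effectors of ER stress and the ATF4-CHOP axis, through which phosphorylated eIF2α reprogrammes translation, 5 of 22 tested genes were called and all were higher. That is 22.7% of the list, where 1.75% of all genes tested were called higher. Chac1 (ENSCGRG00001014710), a glutathione-degrading enzyme, was at 10.5, 9.62, 9.90 and 7.07 CPM at 40 °C and 23.7, 41.1, 26.5 and 57.7 CPM at 42.5 °C. The 40 °C group did not stand apart from the control (log2 difference 0.00, adjusted p = 0.997), and the difference between the heated groups was 2.03 (SE 0.23, adjusted p = 8.96e-06). Ppp1r15a (GADD34), which recruits a phosphatase to eIF2α, rose by 0.65 (SE 0.07, adjusted p = 7e-06), from 24.9 to 27.8 CPM to 36.2 to 44.4 CPM.

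The fifth call of this list was Atf3, given above, and several well-known members were not called. Ddit3 (CHOP) had a log2 difference of -0.18 (SE 0.22, adjusted p = 0.546) and Atf4 of 0.32 (SE 0.12, adjusted p = 0.0489). Xbp1 (-0.33), Herpud1 (-0.33) and Trib3 (-0.50) were below 0 with adjusted p under 0.05 and short of the fold change threshold. Cebpb (0.66) had overlapping libraries and fell short of the threshold without 40 °C replicate A (0.54) or 42.5 °C replicate B (0.48), and Sesn2 (0.59) did so without 40 °C replicate D (0.55), 42.5 °C replicate C (0.51) or 42.5 °C replicate D (0.49). Sesn2 had means of 10.65 CPM at 37 °C, 7.32 CPM at 40 °C and 10.89 CPM at 42.5 °C, so its 42.5 °C mean lay near the control mean.

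Genes of inflammatory signalling moved in both directions. NFKBIA (ENSCGRG00001024024), the IκBα inhibitor that retains NF-κB in the cytosol and is itself an NF-κB target, was at 139, 175, 152 and 180 CPM at 40 °C and 65.4, 49.0, 52.6 and 61.3 CPM at 42.5 °C. All 42.5 °C libraries lay below all others, and the log2 difference was -1.48 (SE 0.09, adjusted p = 1.79e-08). Map3k14, the NIK kinase of the noncanonical pathway, had -1.09 (SE 0.07, adjusted p = 5.4e-08), from 42.6 to 47.7 CPM to 18.9 to 23.5 CPM. The third gene called lower of 17 tested was Nkrf, an NF-κB repressor, at -0.65, which was -0.57 without 42.5 °C replicate B.

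In contrast, the feedback genes Nfkbiz and Tnfaip3 rose. Nfkbiz, a nuclear IκB that promotes transcription of secondary response genes, was at 4.24, 4.54, 3.84 and 5.13 CPM at 40 °C and 13.9, 20.9, 14.3 and 28.5 CPM at 42.5 °C, a log2 difference of 2.15 (SE 0.21, adjusted p = 2.3e-06). Tnfaip3 (A20), a ubiquitin editor, rose by 0.91 (SE 0.15, adjusted p = 0.000272). The transcripts of the subunits Rela (-0.01) and Nfkb1 (0.06) did not pass the test. Calls made up 29.4% of this NF-κB list, where 5.27% of all genes tested were called.

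Cytokines and chemokines were split, with 4 of 16 tested genes called higher and 3 called lower. Together these were 43.8% of the list, where 5.27% of all genes tested were called. Cxcl1 (ENSCGRG00001017483), a neutrophil-attracting chemokine, was the largest fall among named genes, at 6.43, 10.0, 8.995 and 8.01 CPM at 40 °C and 1.25, 1.56, 0.868 and 1.88 CPM at 42.5 °C. The groups were far apart, the controls were at 9.60 to 11.2 CPM, and the log2 difference was -2.54 (SE 0.21, adjusted p = 3.69e-07). Csf3 (-1.46, 11 to 15 counts against 1 to 5) and the chemokine receptor Ccr7 (-0.80) were lower too. Il11 rose by 1.14 (SE 0.22), Ptgs2, the inducible cyclooxygenase, by 0.89 (SE 0.15) and Il6 by 0.70 (SE 0.13), and Cntf, a ciliary neurotrophic cytokine, by 1.63 (SE 0.27) from 5 to 9 counts to 14 to 23.

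Receptors and adaptors upstream showed 4 genes lower and 1 higher of 29 tested (17.2% called, where 5.27% of all genes tested were). Tlr6 had a log2 difference of -1.96 (SE 0.28), with 19 to 27 counts per library at 40 °C and 3 to 7 at 42.5 °C, and Ticam1 (TRIF), an adaptor of Toll-like receptors, had -1.70 (SE 0.26). The TNF receptors Tnfrsf1b and Tnfrsf1a fell by 0.85 and 0.66 on the log2 scale, the second from 34.8 to 36.6 CPM to 19.3 to 24.5 CPM. Traf6, a ubiquitin ligase used by IL-1 and Toll receptors, rose by 0.86 (SE 0.12). In the list of IL-6 family receptors, STAT and SOCS genes, 1 of 16 was called, the feedback inhibitor Socs3 with 0.73 (SE 0.14). That call makes up 6.25% of the list, near the 5.27% over all genes tested.

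JNK pathway genes had 3 of 14 called, all lower (21.4%, where 3.51% of all genes tested were called lower). Mapk8ip3, a JNK scaffold that links kinesin to cargo, was at 37.9, 36.0, 35.3 and 29.9 CPM at 40 °C and 13.1, 9.64, 12.2 and 11.96 CPM at 42.5 °C, a log2 difference of -1.55 (SE 0.10, adjusted p = 2.49e-08). The upstream kinases Map4k2 and Map3k11 fell by 1.28 and 0.69 on the log2 scale.

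**Figure D4:**
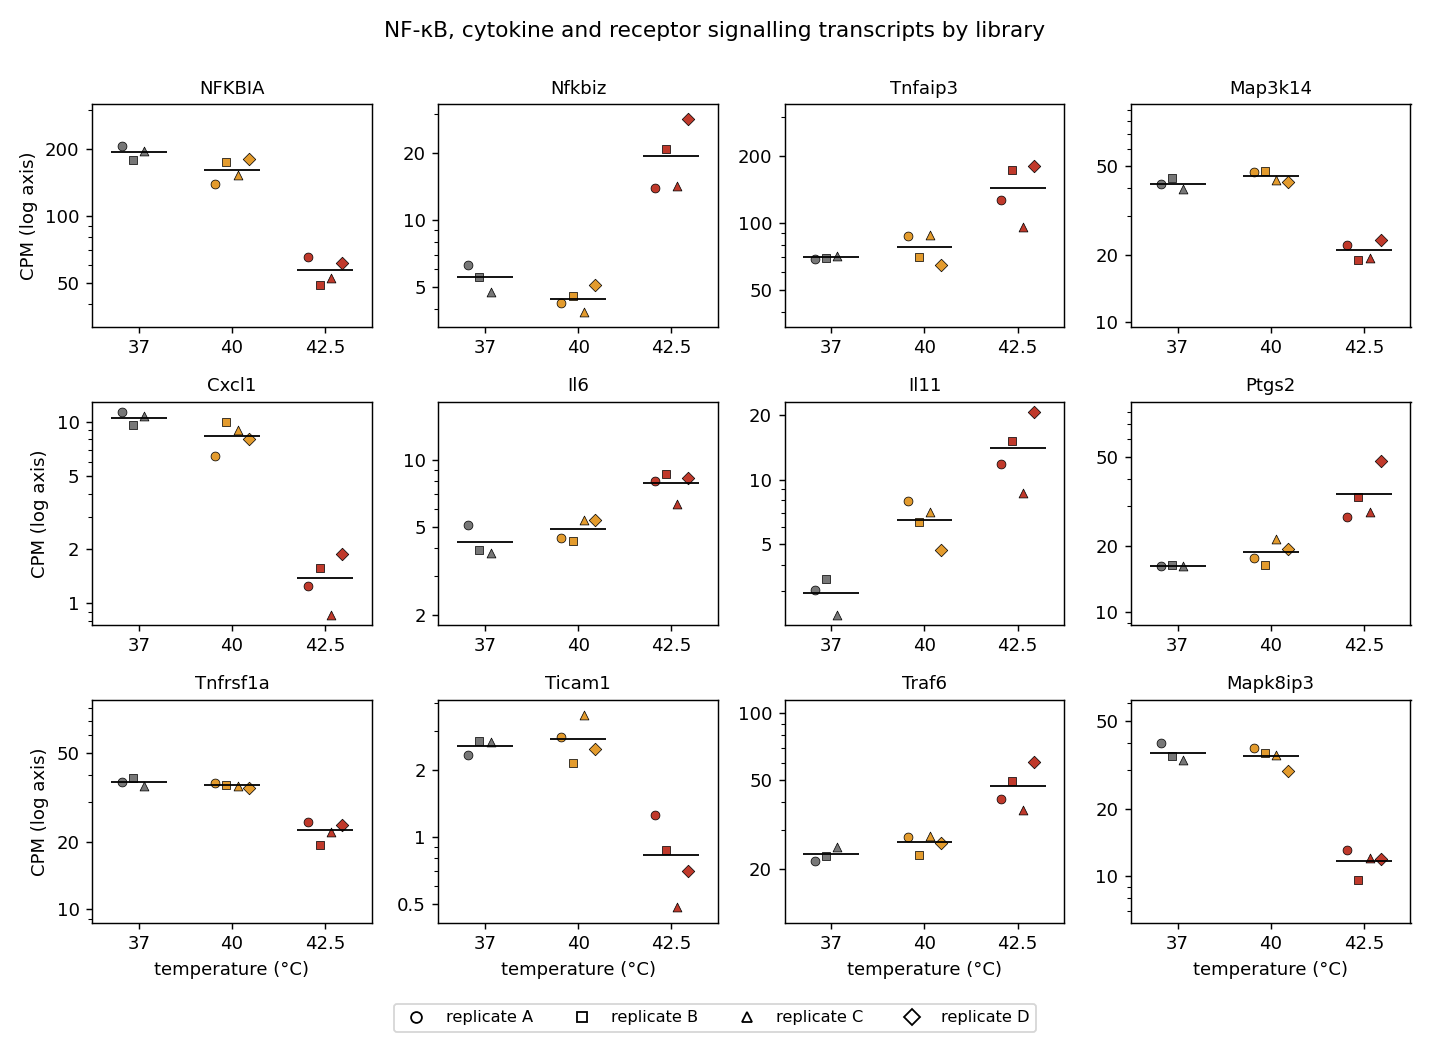
Levels of NF-κB, cytokine, receptor and JNK scaffold transcripts are shown in CPM (log axis) per library at 37 °C (n = 3), 40 °C (n = 4) and 42.5 °C (n = 4), with a symbol per replicate and a line at the group mean. NFKBIA, Map3k14, Cxcl1, Tnfrsf1a, Ticam1 and Mapk8ip3 are lowest at 42.5 °C, and Nfkbiz, Tnfaip3, Il6, Il11, Ptgs2 and Traf6 are highest there.

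Factors that destabilise mRNA were split as well, with 2 higher and 2 lower of 12 (33.3% called, where 5.27% of all genes tested were). The higher were Zc3h12a (regnase-1), an RNase that cuts cytokine mRNAs, with 1.03 (SE 0.13), and Btg2, a deadenylation cofactor, with 0.97 (SE 0.17). The lower were Tob2 (-0.87) and Pelo (-0.62), a ribosome rescue factor, and Pelo fell short of the threshold without 40 °C replicate D (-0.57) and without 42.5 °C replicates A (-0.58) or C (-0.56). Of 25 SR proteins and splicing regulators, Ccnl2 was called, with -0.77 (SE 0.09). That call makes up 4% of the list, near the 5.27% over all genes tested. By adjusted p alone, 12 of the list were lower against 3 higher, where 2050 of all 10441 genes tested were lower and 1717 higher. Of 11 CLK and DYRK kinases, which phosphorylate SR proteins, Dyrk3 was called with 0.61, which was 0.58 without 40 °C replicate D and 0.54 without 42.5 °C replicate D. The cold-inducible CIRBP and Rbm3, listed because heat is known to lower them, had log2 differences of -0.02 (adjusted p = 0.809) and 0.01 (adjusted p = 0.931).

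Chromatin regulators were called lower more often than higher. Of 25 tested, 9 were called lower and 1 higher, where 3.51% and 1.75% of all genes tested were. Their median was -0.26. Setd1b (-1.26), Kmt5c (-1.14), Kmt2b (-1.03), Hexim1 (-0.89) and Brd8 (-0.83) were the 5 largest falls, and all except Hexim1, an inhibitor of the elongation kinase P-TEFb, and Brd8, a bromodomain protein, encode histone methyltransferases. Kmt2b (ENSCGRG00001023704), which methylates histone H3 at promoters, was at 66.7, 61.1, 61.3 and 55.4 CPM at 40 °C and 33.5, 27.4, 28.3 and 29.9 CPM at 42.5 °C, with adjusted p = 6.07e-08. The gene called higher was the acetyltransferase Crebbp, with 0.82 (SE 0.09). Jarid2 (-0.59) lost its call without any of 6 single libraries, 40 °C replicates B, C and D and 42.5 °C replicates B, C and D, with values of -0.58 to -0.54.

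Zinc finger genes fell more often than they rose. Of 200 ZFP/ZNF factors tested, 28 were called lower and 7 higher, where 3.51% and 1.75% of all genes tested were, and their median was -0.06. The largest fall was in Zfp551, at 3.76, 6.54, 4.42 and 3.89 CPM at 40 °C and 2.41, 1.36, 1.45 and 1.17 CPM at 42.5 °C, a log2 difference of -1.52 (SE 0.25, adjusted p = 0.000211). Zfp784 (-1.46), Zfp324 (-1.30), Zfp772 (-1.23) and Zfp956 (-1.20) followed, while Zfp84 (1.21), Zfp654 (0.85), Zfp715 (0.82), Zfp869 (0.71) and Zfp964 (0.69) rose most. Of these, Zfp964 lost its call without 40 °C replicate B (0.60, adjusted p = 0.0657), without 40 °C replicate C (0.58) and without 42.5 °C replicate C (0.66, adjusted p = 0.0512).

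The 48 tested ZBTB, ZKSCAN and ZSCAN factors had 6 called lower, led by Zbtb48 (-1.02), Zbtb45 (-0.88), Zbtb7a (-0.71), Zkscan6 (-0.68) and Zkscan16 (-0.67), and 1 higher, Zkscan14 (1.64, SE 0.13). Zkscan6 was at -0.53 without 42.5 °C replicate C. Calls made up 14.6% of these factors, where 5.27% of all genes tested were called. HOX genes, which pattern the body axis, had 3 of 22 called, all lower (13.6%, where 3.51% of all genes tested were called lower). Of the 22, 21 lay below 0 with a median of -0.28, where 5164 of all 10441 genes tested lay below 0. HOXD4 (-2.07, SE 0.30, 24 to 33 counts against 3 to 7), Hoxc6 (-0.92) and Hoxa3 (-0.75) were the calls.

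All calls in the cell cycle lists were falls. Of 28 G2/M and mitosis genes, 5 were called lower (17.9%), where 3.51% of all genes tested were. Ccnf (ENSCGRG00001021164), the F-box protein cyclin F, was at 88.3, 82.0, 82.7 and 83.0 CPM at 40 °C and 40.9, 35.7, 31.2 and 33.7 CPM at 42.5 °C, a log2 difference of -1.23 (SE 0.07, adjusted p = 4.09e-09), and the spindle protein Fam83d fell by 1.16 on the log2 scale (SE 0.11). Gtse1 had -0.65. Mis12 (-0.65) and Espl1 (-0.60) were near the threshold, since Mis12 was at -0.56 without 42.5 °C replicate B, -0.55 without 42.5 °C replicate C, -0.58 without 40 °C replicate C and -0.56 without 40 °C replicate D, and Espl1 at -0.58 without 40 °C replicate B or 42.5 °C replicate C. Of 27 replication and S phase genes, Ccne2, cyclin E2, was called with -0.81 (SE 0.07). That call makes up 3.7% of the list, near the share over all genes.

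Nucleolar ribosome biogenesis had 4 of 31 genes called, all lower (12.9%, where 3.51% of all genes tested were called lower). They were Taf1d (-1.35, SE 0.14), a subunit of the RNA polymerase I selectivity factor, Coil (-1.09, SE 0.08), the Cajal body scaffold coilin, Imp3 (-0.93) and Ppan (-0.92). Taf1d was at 24.9 to 36.4 CPM at 40 °C and 8.83 to 13.8 CPM at 42.5 °C. Of 50 genes of tRNA modification and charging, 8% were called, where 5.27% of all genes tested were. Pars2 (-1.05) and TRMT5 (-0.78) were called lower, and Trpt1 (0.64) and Trmt1l (0.60) higher. The last 2 fell short without 40 °C replicate B, at 0.57 and 0.58, and without 42.5 °C replicate D, at 0.54 and 0.45.

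In the lists of death and stress defence genes, calls made up 18.2% of the BCL2 family, 25% of p53 targets and 13.6% of oxidative stress genes, where 5.27% of all genes tested were called. Of 11 BCL2 family genes, the survival factor Mcl1 rose by 0.64 (SE 0.07, adjusted p = 3.84e-06) and Bbc3 (PUMA), which opposes it, had -0.72 (SE 0.20), or -0.54 without 42.5 °C replicate D. Of 16 p53 pathway targets 4 were called, Btg2 and Sesn2 higher and Plk2 (-0.83) and Bbc3 lower, and Cdkn1a (p21) had 0.21 (adjusted p = 0.242). Oxidative stress and glutathione genes had 3 of 22 higher. Srxn1, which repairs oxidised peroxiredoxin, was at 201, 189, 201 and 195 CPM at 40 °C and 301, 398, 310 and 456 CPM at 42.5 °C, a log2 difference of 0.91 (SE 0.10, adjusted p = 4.41e-06). The others were Nfe2l3 (1.69, SE 0.33, 4 to 13 counts per library at 40 °C against 13 to 29) and Osgin1 (0.67, or 0.56 without 42.5 °C replicate D). Of 17 circadian genes Bhlhe40 was called, with 1.23 (SE 0.14), which is 5.88% of the list and near the share over all genes. Of 15 YAP and SRF targets Rhob (-0.92) and Fjx1 (-0.86) were called lower (13.3%, where 3.51% of all genes tested were called lower).

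Mitochondrially encoded transcripts were higher at 42.5 °C. All 13 had adjusted p under 0.05 and a difference above 0, 5 of them past the 1.5-fold threshold, with a median of 0.49. ND5, a subunit of complex I, was at 1073, 934, 910 and 1109 CPM at 40 °C and 1479, 1886, 1727 and 1469 CPM at 42.5 °C, a log2 difference of 0.72 (SE 0.08, adjusted p = 4.76e-06). ATP8 (0.83), ND6 (0.64), ND3 (0.63) and ATP6 (0.59) were the other calls. Without 40 °C replicate C, ND6 was at 0.58 and ATP6 at 0.54, and ATP6 was also at 0.53 without 40 °C replicate B and 0.57 without 42.5 °C replicate D. As a share of all counts these 13 genes took 2.39% to 3.12% at 40 °C, 3.55% to 3.80% at 42.5 °C and 2.23% to 3.06% in the 3 controls. ATP8 and ATP6 overlap, ND6 lies on the opposite strand from its neighbours, and the strand setting of the counting was not given in the sources used here, so reads of these genes may be shared.

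The nuclear-encoded groups of the same processes and of protein turnover held no call. None of 62 nuclear-encoded oxidative phosphorylation genes, 70 mitochondrial ribosomal proteins, 31 cytosolic ribosomal proteins or 42 proteasome and ubiquitin genes was called. Their medians were 0.07, 0.01, 0.09 and 0.06. By adjusted p alone, 13 were higher and 2 lower in the first of these lists, 6 and 7 in the second, 8 and 1 in the third and 9 and 2 in the last.

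Lipid genes, of interest because the study also followed membrane lipids, were called at shares of 0% to 11.4% per list, where 5.27% of all genes tested were called. None of 16 genes of fatty acid synthesis was called, 1 of 25 of cholesterol synthesis, 1 of 26 of sphingolipid metabolism and 4 of 35 of phospholipid remodelling. Plpp7, a phospholipid phosphatase relative, was at 9.51, 13.1, 9.73 and 9.17 CPM at 40 °C and 4.73, 2.73, 5.399 and 3.21 CPM at 42.5 °C, a log2 difference of -1.36 (SE 0.18, adjusted p = 3.34e-05). The ganglioside sialidase Neu3 had -0.90 (SE 0.15), the lipid droplet protein Plin4 -0.76 (SE 0.12) and Lpcat1 -0.64, or -0.57 without 42.5 °C replicate D. Plpp6 was called higher with 0.64, or 0.52 without 40 °C replicate D and 0.57 without 42.5 °C replicate C. Its means were 4.51 CPM at 37 °C, 3.14 CPM at 40 °C and 4.89 CPM at 42.5 °C, so the 42.5 °C mean lay near the control mean. Insig1, the sterol-sensing brake on cholesterol synthesis, had -0.60 and was at -0.58 and -0.56 without 40 °C replicate C or D and at -0.55 and -0.53 without 42.5 °C replicate A or B.

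**Figure D5:**
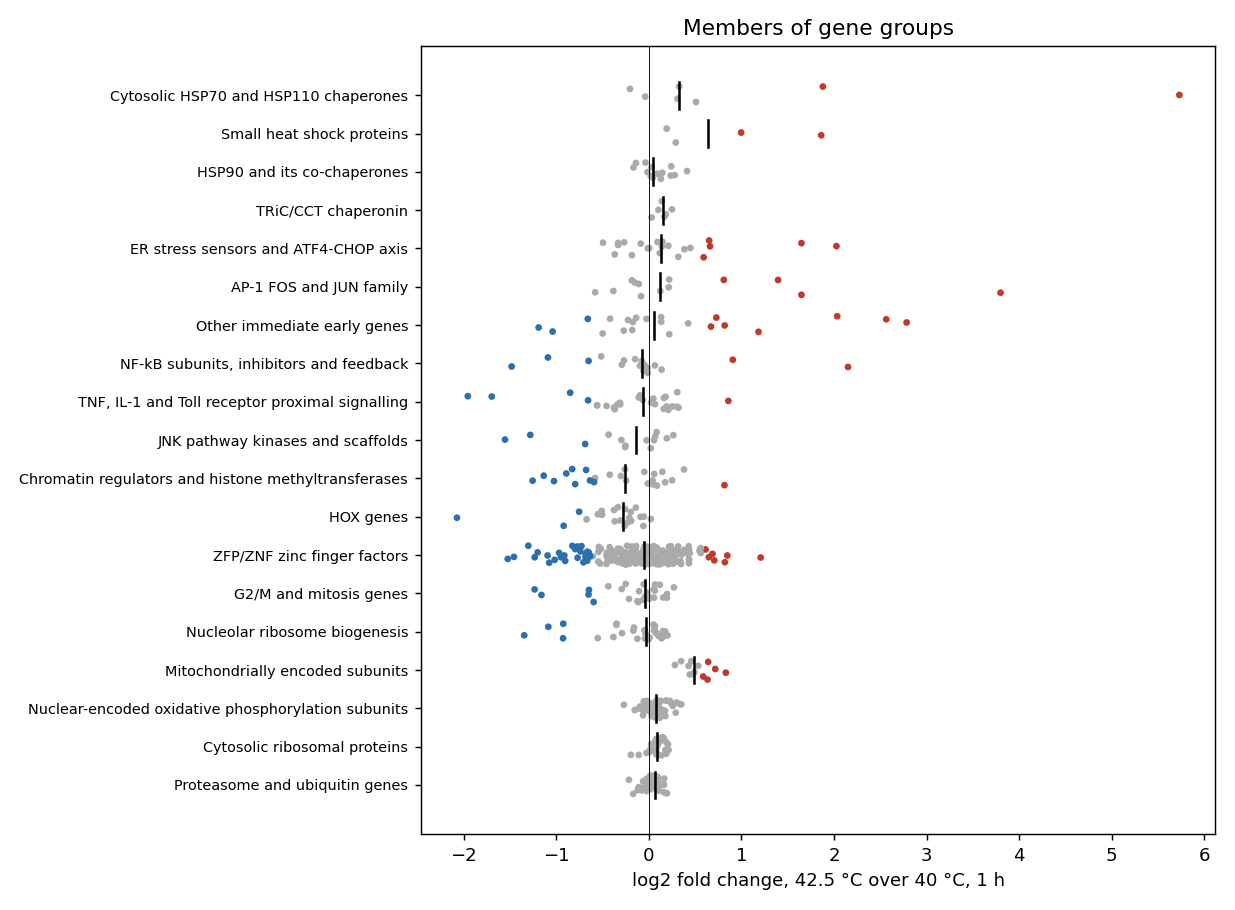
Each point is the log2 difference between 42.5 °C and 40 °C of a tested member of the gene group named at the left, red if called higher, blue if called lower and grey otherwise, with a black bar at the group's median. The mitochondrially encoded group lies wholly to the right of 0 with a median of 0.49, and the HOX group lies almost wholly to the left with a median of -0.28.

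The remaining genes of the 15 largest rises were of low level at 40 °C. Lrit3, a leucine-rich repeat membrane protein, had 2 to 6 counts per 40 °C library and 40 to 66 per 42.5 °C library, a log2 difference of 3.79 (SE 0.28, adjusted p = 1.17e-07). Arhgef16 rose by 2.29 (SE 0.31) from 11 to 29 counts to 39 to 124. The gene 1700102P08Rik, whose function is not known here, rose by 2.08 (SE 0.27) from 6 to 23 counts to 39 to 71.

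The remaining genes of the 15 largest falls came from a wide range of functions. Osbpl7, a lipid-binding protein of the oxysterol-binding family, was at 17.2, 17.5, 16.7 and 17.1 CPM at 40 °C and 5.27, 4.77, 4.24 and 2.97 CPM at 42.5 °C, a log2 difference of -1.99 (SE 0.13, adjusted p = 3.34e-08). The DNA helicase Pif1 was at 33.1 to 40.3 CPM at 40 °C and 8.91 to 15.5 CPM at 42.5 °C (-1.63, SE 0.13), and the Notch-modifying glycosyltransferase Lfng at 29.3 to 30.5 CPM and 7.14 to 13.5 CPM (-1.63, SE 0.13). All 4 libraries of each of these genes at 42.5 °C lay below the 40 °C range, which itself lay near the 37 °C means of 18.6, 39.5 and 28.2 CPM.

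The ephrin receptor Ephb3 (-1.87), the brain-type carnitine palmitoyltransferase Cpt1c (-1.66), the lysophosphatidic acid receptor Lpar6 (-1.65), Amt of the glycine cleavage system (-1.65) and the mitochondrial RNA helicase Ddx28 (-1.64) had SE values of 0.13 to 0.21. Fam222b (-1.47), Hps6 (-1.46), a subunit of a lysosome-related organelle complex, and Abtb1 (-1.41) completed the list. Of the rows named from the study's list of leading genes and not yet given, PTP4A1, a tyrosine phosphatase, was called with -1.30 (SE 0.28, adjusted p = 0.00208), and WDR66 (0.63, adjusted p = 0.183) and NAA20 (0.19, adjusted p = 0.738) were not. RIN2, BCLAF1, Iigp1, GAB2 and CRNKL1 did not pass the filter on low counts.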

How the data were processed

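RNA of 16 CHO cultures was sequenced, of which the 4 at 40 °C for 1 h and the 4 at 42.5 °C for 1 h were compared. The authors deposited whole-number read counts per gene and library without normalization, made by mapping trimmed reads to the CHOK1GS_HDv1 genome and counting with CLC Genomics Workbench. The strand setting and the treatment of reads with several mapping places were not given in the sources used here. Of 20824 genes, 4423 carry an identifier only and 22 a name turned into a date. Names of 12 rows, HSPA1A/HSPA1B and HSPA8 among them, follow the study's list of leading genes, which was paired with identifiers by fold change. These names rest on that match.

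Counts were tested with edgeR 4.0.16 in R 4.3.3 (filterByExpr, TMM, quasi-likelihood test, Benjamini-Hochberg adjustment over all genes tested), a gene being called at 1.5-fold or more if its adjusted p was under 0.05. The biological coefficient of variation was 0.0537. Levels are CPM with TMM factors over all 16 libraries. Total counts per library were between 10504192 and 14668365. The p-values measure the spread between 4 cultures a group. The test was checked on simulated data.

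The members and the 46 gene lists were chosen with earlier results of these data known. Genes named are the 15 largest called rises and falls with a name, at least 3 CPM in the higher group and no overlap of libraries, up to 5 called members each way per list, relatives set against them, and the 12 rows named from the study. For 40 °C against 37 °C, same-letter libraries correlated after subtraction of group means by 0.109 to 0.212 over 3 pairs. The letters may thus mark pairs there, but the values against 37 °C given above are from fits without a block. HSPA1A/HSPA1B was 3.33 higher at 40 °C on the log2 scale with the letter as a block (adjusted p = 4.34e-09). Egr1 was then at -0.46 (adjusted p = 0.000105). With the letter as a block, 12 of the 13 named genes called in that comparison were called again. The exception was Cebpb, and NAA20 and PTP4A1 were called in addition. Alternatives were DESeq2 1.42.0 (its Wald test, or its scaling in edgeR), all genes unfiltered, at least 10 counts in every library, 1 fit over all groups, the replicate block, adjusted p alone, glmTreat, each library left out, and all 4 controls. Promoter motifs were not analysed here.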

Additional observations from a re-analysis of the deposited data

Results flagged for a closer look

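In the 2 groups of 4 libraries, 6 of 358 sets of 4 values had 1 library set apart from the other 3 by Dixon's ratio of gap to range, a measure that chance alone exceeds in about 1 of 20 sets. At 40 °C, Junb was lowest in replicate D, at 59.9 CPM against 68.3 to 69.9 CPM in the others, and Zfp707 was lowest in replicate A, at 3.15 CPM against 3.81 to 3.93 CPM. Ier2 was highest in 40 °C replicate C, at 8.42 CPM against 7.12 to 7.31 CPM, and Ccnf in replicate A, at 88.3 CPM against 82.0 to 83.0 CPM. Plpp7 was highest in 40 °C replicate B, at 13.1 CPM against 9.17 to 9.73 CPM. At 42.5 °C, Zfp248 was highest in replicate A, at 3.57 CPM against 1.83 to 2.11 CPM. Zfp707 lost its call without 42.5 °C replicate B (-0.58) or C (-0.53), and the other 5 genes stayed called without any single library.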

How the results depend on the processing

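The count of 550 called genes depended most on the threshold. Adjusted p alone gave 3767 genes, 1717 higher and 2050 lower, and glmTreat against a 1.5-fold change gave 171, 71 higher and 100 lower. Without a filter on low counts, 328 genes were called higher and 396 lower. With each library left out, between 510 and 618 genes were called, 156 to 207 higher and 345 to 411 lower. Same-letter libraries of the 40 °C and 42.5 °C groups correlated by -0.046 to 0.066, and those of different letters by -0.211 to 0.12. With so few libraries, these values cannot decide whether the letters mark pairs. With the letter as a replicate block 546 genes were called, 174 higher and 372 lower, of which 539 were among the 550. The share of calls that were higher was 33.3%, and 30.6% to 45.6% over the alternatives. For 40 °C against 37 °C, all 4 controls gave 3 calls in place of 35 and the replicate block 48, and for 42.5 °C against 37 °C the block gave 717 in place of 786. Of 170 named genes called, 137 were called in every alternative except glmTreat that tested them, 77 of these also with glmTreat, and 0 changed sign. Genes under 10 counts in any library, Cxcl1 and Egr2 among them, were tested in 15 of the 16 alternatives. NAA20, which was not called, ranged from -0.12 to 0.42 with each library left out and was below 0 in 3 of these fits. The low counts of genes such as Lrit3, Ccn5 and Csf3 limit the precision of their fold changes. Motifs in promoters were not run.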
